A study of Homo sapiens with 12 samples.

Results

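The comparison described here is that of HCT116 cells late after release with the vehicle DMSO, at 9 and 10 h, against the same release at 6, 7 and 8 h, the hours over which a synchronized culture is expected to leave mitosis for G1. HCT116 is an established line from a human colorectal carcinoma. All cultures had first been held at the G1/S border by a double thymidine block. The members are the 5 arrays whose labels give DMSO and one of these hours, of 12 arrays in the series, and each is described across the 9130 genes with a log2 signal of at least 5 on at least 2 arrays (1 probe set per gene, the one with the highest mean). The groups used are DMSO at 9 and 10 h (2 arrays) and DMSO at 6, 7 and 8 h (3 arrays). DMSO at 0, 2 and 4 h (3 arrays) and nocodazole, which prevents spindle assembly, at 7, 8, 9 and 10 h (4 arrays) serve as further points. Every hour has 1 array and no replicate, so the neighbouring hours of a window stand in for replicates, and a time trend inside a window counts as spread.

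The passage out of mitosis is driven by the loss of CDK1 activity. The anaphase-promoting complex marks cyclin B and securin for destruction, the chromatids part, the nuclear envelope forms again and the daughter cells divide. Many mitotic genes are transcribed in G2 and M phase from promoters with a cell cycle homology region (CHR) and CCAAT boxes, and are repressed in G1 by complexes that hold RB-like proteins. In G1, E2F factors turn on the genes of cyclin E, of origin licensing and of DNA replication. RNA levels are read here and not protein levels, and in bulk RNA fewer cells of a phase and less RNA per cell cannot be told apart.

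The 5 arrays had Pearson's r from 0.976 to 0.996 with each other across the genes, which are not independent points. Their median log2 signals were 9.27 and 9.56 at 9 and 10 h, against 9.29, 9.47 and 9.23 on the 6, 7 and 8 h arrays, so that the 10 and 7 h arrays were brighter as deposited. Values are therefore given as deposited and, where they decide a count, also after quantile normalization. The epithelial markers EPCAM, CDH1, KRT8, KRT18 and KRT19 stood between 10.53 and 14.83 on all 5 arrays, while VIL1, a marker of differentiated intestinal epithelium, stood at 2.56 to 2.62. PTPRC, CD3E, CD14, COL3A1, PDGFRB and CDH5, markers of leukocytes, fibroblasts and endothelium, lay at or under 3.37, PECAM1 at 3.71 to 4.87 and COL1A1 at 7.79 to 8.57.

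CDK1, the kinase of mitotic entry, had log2 signals of 12.26 and 12.02 at 9 and 10 h, against 13.85, 13.39 and 13.06 on the 6, 7 and 8 h arrays. The windows did not overlap, with a difference of -1.29 (SE 0.20). GINS2, a subunit of the GINS complex of the replicative helicase, had 11.42 and 11.97 at 9 and 10 h, against 10.82, 10.79 and 11.01 on the 6, 7 and 8 h arrays. It was higher on both late arrays, by 0.82 (SE 0.19). CCNB1, which encodes cyclin B1, had 13.67 and 13.54 at 9 and 10 h, against 13.58, 13.80 and 13.91 on the 6, 7 and 8 h arrays. The CCNB1 windows overlapped (difference -0.16, SE 0.25), and this marker does not separate them. The 2 windows are thus named here by their hours.

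In the comparison of the 2 windows by limma, 0 of 9130 genes (0.0%) passed an adjusted p of 0.05 in either direction, and the lowest adjusted p was 0.280, or 0.169 after quantile normalization. An unadjusted p under 0.05 was reached by 470 genes, or 735 after quantile normalization. The windows are therefore described by the genes whose arrays do not overlap, which is no test. With 2 arrays against 3, arrays in random order also leave some genes without overlap. A count of such genes therefore does not show that they changed. As deposited, 890 genes were higher on both late arrays than on all 3 earlier ones (9.75%) and 673 were lower (7.37%). After quantile normalization these counts were 1138 (12.5%) and 1495 (16.4%). On both scales 621 genes stayed higher (6.8%) and 547 lower (5.99%), and these are meant below by genes that did not overlap. Their median differences were 0.42 and -0.39, beside 0.04 over all genes (-0.03 after quantile normalization), and 22 and 46 of them reached a size of 1. With an array left out, a window overlaps less often by construction. Without the 9 h array 2300 genes were higher and without the 7 h array 1316. Without the 10, 8, 7, 9 or 6 h array 1930, 1221, 932, 881 and 842 were lower.

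A straight line over the 5 hours, fitted with limma after quantile normalization, tests each gene for a slope other than 0. A step between hours can also give such a slope. The line was chosen after the data were seen. It called 66 genes rising from 6 to 10 h (0.723%) and 182 falling (1.99%). These shares are the background of the line counts given below for lists. The line rests on the same 5 arrays as the windows, so its calls are no separate support for them. Of the 66 rising genes 62 were also without overlap, and of the 182 falling ones 154. CDK1 fell by 0.50 per hour on the log2 scale (SE 0.04, limma, adjusted p = 0.00282) and GINS2 rose by 0.28 per hour (SE 0.04, limma, adjusted p = 0.0242), while the slope of CCNB1 was -0.03 per hour (adjusted p = 0.804). The count depended on the last arrays. Without the 10 h array 1 gene rose and 12 fell, without the 9 h array 3 rose and 34 fell, and without the 8 h array 40 and 130. CDK1, CKAP2L, HJURP, HYLS1, MTFR2, NEIL3, PCDH7, TRIM59 and ZNF165 were called falling whichever of the 5 arrays was left out, and no rising gene was. As deposited the line called 0 genes rising and 5 falling, which were CDK1, CKAP2L, HJURP, TRIM59 and ZNF165. HYLS1, MTFR2, PCDH7 and TRIM59 are named for these counts, after their values were seen.

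**Figure D1:**
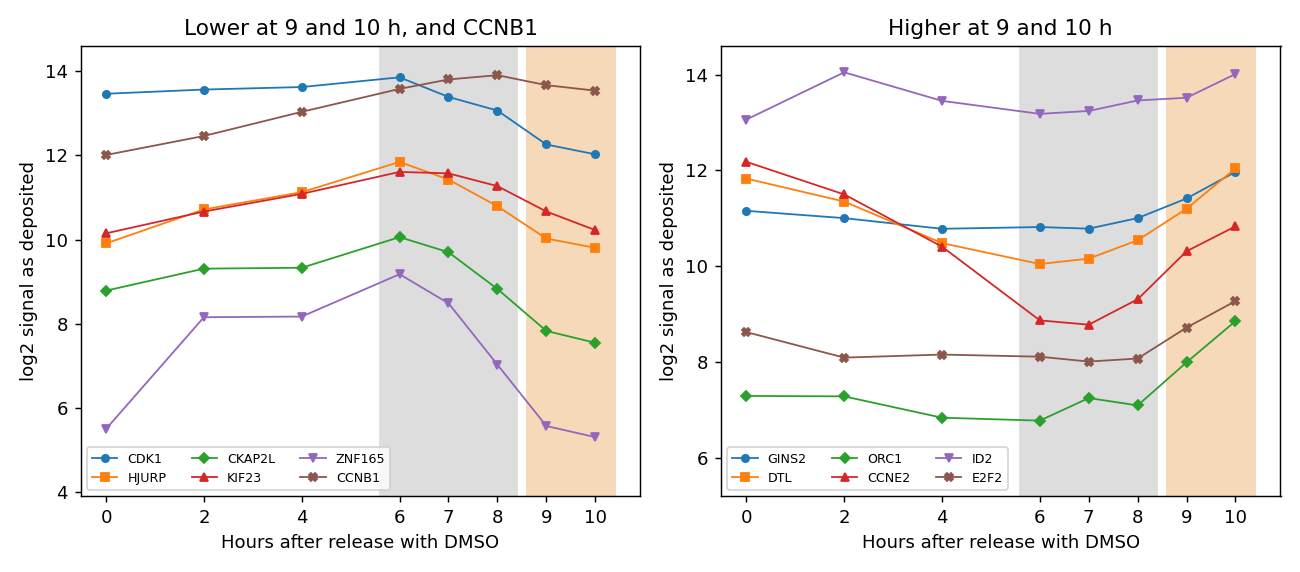
Log2 signal as deposited of 12 genes on the 8 DMSO arrays, 1 array per point, against hours after release. The grey band marks 6 to 8 h and the orange band 9 and 10 h. CDK1 lies at 12.26 and 12.02 in the late window, against 13.06 to 13.85 in the earlier one, CCNE2 at 10.31 and 10.83, against 8.78 to 9.31, and CCNB1 overlaps.

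The promoters of 6 of these genes are shown because the CHR, CCAAT and E2F motifs named above can be read in them. The promoter windows of 300 bases span the transcription start (RefSeq, GRCh38.p14), and 445 of the 547 lower and 510 of the 621 higher genes had one. The promoters of 3 lower genes follow, each 5′ to 3′ on the strand of the gene, with the CHR (TTTGAA) and the CCAAT box (CCAAT, or ATTGG where it lies on the other strand) in capitals.
CDK1, chr10:60778081-60778380, plus strand: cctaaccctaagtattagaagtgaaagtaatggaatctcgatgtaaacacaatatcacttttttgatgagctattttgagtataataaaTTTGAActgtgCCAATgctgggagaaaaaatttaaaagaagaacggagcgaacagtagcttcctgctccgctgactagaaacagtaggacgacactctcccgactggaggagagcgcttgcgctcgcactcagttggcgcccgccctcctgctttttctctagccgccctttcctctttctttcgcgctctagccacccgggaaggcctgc
HJURP, chr2:233854486-233854785, minus strand: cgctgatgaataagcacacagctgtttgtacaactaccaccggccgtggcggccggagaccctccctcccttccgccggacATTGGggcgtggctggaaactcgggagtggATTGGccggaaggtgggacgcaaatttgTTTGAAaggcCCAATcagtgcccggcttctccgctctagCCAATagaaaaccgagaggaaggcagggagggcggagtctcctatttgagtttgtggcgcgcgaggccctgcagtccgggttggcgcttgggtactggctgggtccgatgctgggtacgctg
KIF23, chr15:69414099-69414398, plus strand: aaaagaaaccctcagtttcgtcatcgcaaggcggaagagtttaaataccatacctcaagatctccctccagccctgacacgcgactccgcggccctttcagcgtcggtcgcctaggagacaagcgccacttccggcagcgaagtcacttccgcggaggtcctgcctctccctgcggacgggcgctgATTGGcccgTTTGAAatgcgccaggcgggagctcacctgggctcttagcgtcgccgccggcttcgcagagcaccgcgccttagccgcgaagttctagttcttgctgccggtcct
Counted from the transcription start, with bases before it negative, the CHR begins at -161 in CDK1, at -111 in HJURP and at -55 in KIF23. The nearest CCAAT box lies downstream of the CHR in CDK1 and HJURP and upstream of it in KIF23. HJURP has CCAAT boxes on both sides of its CHR, the nearest at -101. The promoters of 3 higher genes have an E2F motif (TTTCCCGC, TTTCGCGC, TTTGCCGC or TTTGGCGC on either strand) in capitals.
DTL, chr1:212035498-212035797, plus strand: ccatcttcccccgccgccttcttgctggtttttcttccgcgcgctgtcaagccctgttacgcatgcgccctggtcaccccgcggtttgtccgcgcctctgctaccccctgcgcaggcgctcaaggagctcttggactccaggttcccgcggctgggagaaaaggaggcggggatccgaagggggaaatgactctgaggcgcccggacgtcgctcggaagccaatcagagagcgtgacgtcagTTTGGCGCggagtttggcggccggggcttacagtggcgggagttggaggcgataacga
GINS2, chr16:85688905-85689204, minus strand: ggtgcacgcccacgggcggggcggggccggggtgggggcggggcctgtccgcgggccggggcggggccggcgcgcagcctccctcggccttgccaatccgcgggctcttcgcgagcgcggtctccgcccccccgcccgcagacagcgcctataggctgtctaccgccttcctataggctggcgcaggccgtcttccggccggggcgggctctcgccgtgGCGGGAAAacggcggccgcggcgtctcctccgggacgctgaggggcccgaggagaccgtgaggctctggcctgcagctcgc
E2F2, chr1:23531184-23531483, minus strand: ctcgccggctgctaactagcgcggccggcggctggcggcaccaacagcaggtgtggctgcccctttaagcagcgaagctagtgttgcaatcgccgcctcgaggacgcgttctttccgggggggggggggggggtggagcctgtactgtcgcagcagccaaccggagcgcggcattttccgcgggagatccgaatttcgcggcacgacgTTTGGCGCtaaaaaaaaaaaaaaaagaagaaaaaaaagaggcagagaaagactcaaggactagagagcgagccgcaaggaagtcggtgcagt
It begins at -8 in DTL, at -31 in GINS2 (on the other strand) and at -42 in E2F2. CDK1 also holds an E2F motif at 20, and DTL and GINS2 a CCAAT box, which are left in lower case. These 6 promoters were chosen after their motifs were seen.

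Over the whole sets, searched on both strands, the CHR motif was in 20.0% of the promoters of lower genes, 7.84% of those of higher genes and 9.78% of those of all 7584 described genes with a promoter, while 15.4% of all 27305 promoters of the table held it. The E2F motifs were in 9.61% of the promoters of higher genes, 5.17% of those of lower genes and 5.84% of those of all described genes, beside 3.33% of all promoters. Among genes with a difference of at least 0.5 in size, a limit set after the data were seen, the CHR was in 28.4% of 162 lower and 7.74% of 168 higher genes, and the E2F motifs in 5.56% and 13.1%. CCAAT alone separated the sets little, with 42.2% of lower, 40.6% of higher and 37.5% of all described genes. A match is a stretch of letters and not a site of binding, and no test was made of these shares.

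Genes of the mitotic kinases and their cyclins were lower in part. Of 21 genes for cyclins A and B, CDK1, mitotic kinases and associated proteins, 11 were lower without overlap (52.4%, background 5.99%) and 0 were higher, with a median difference of -0.31. The associated proteins are BORA, CCNF, CDC25B, CDC25C, CKS1B and CKS2, and BORA, CCNF, CDC25C and CKS2 are among the lower genes. By the straight line 7 of the 21 fell and 0 rose, beside 1.99% falling and 0.723% rising over all genes. The other 10 did not separate on both scales, among them PLK1 (0.01), CCNB2 (0.00), HASPIN (-0.05) and MASTL (0.25). BORA, an activator of Aurora A, had 9.70 and 9.41 at 9 and 10 h, against 10.92, 10.98 and 10.31 on the 6, 7 and 8 h arrays, and fell by 0.48 per hour (limma, adjusted p = 0.0113). TTK, the MPS1 kinase of the spindle checkpoint, had 10.26 and 9.98 at 9 and 10 h, against 11.14, 11.08 and 10.76, and fell by 0.36 per hour (limma, adjusted p = 0.0191). Both late values of either gene lay under all earlier ones. CCNF, the F-box protein cyclin F, fell by 0.38 per hour (limma, adjusted p = 0.0187). Among 12 genes of the spindle checkpoint only TTK and BUB3 were lower (16.7%, against 5.99% of all genes). TRIP13, a remodeller of MAD2, was higher (8.33%, against 6.8% of all genes), and the list median was -0.035. BUB3 differed by -0.25 (SE 0.11) and TRIP13 by 0.25 (SE 0.14).

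Of 5 measured genes of the chromosomal passenger complex and the shugoshins, 3 were lower (60.0%, against 5.99% of all genes) and 0 higher (median -0.66). CDCA8, which encodes borealin, had 11.68 and 11.35 at 9 and 10 h, against 12.42, 12.37 and 12.12, and fell by 0.31 per hour (limma, adjusted p = 0.0326). INCENP, the scaffold of the complex, stood at 6.79 and 6.63 against 7.12, 8.03 and 6.94. AURKB, its kinase, stood at 10.96 and 11.13 against 11.49, 11.64 and 11.35. Neither of these was called by the line (adjusted p of 0.157 and 0.0732), and INCENP stood highest on the 7 h array.

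Of 24 mitotic kinesins and spindle proteins 14 were lower (58.3%, against 5.99% of all genes) and 0 higher (median -0.30). Of 11 genes of cytokinesis 8 were lower (72.7%) and 0 higher (median -0.35). Lists share members, so their counts are not separate results. KIF23, the kinesin of the midzone centralspindlin complex, is a member of both lists, as are PRC1 and KIF20A. KIF23 had 10.67 and 10.22 at 9 and 10 h, against 11.61, 11.57 and 11.27 on the 6, 7 and 8 h arrays, and fell by 0.41 per hour (limma, adjusted p = 0.0248). KIF14, a kinesin needed for abscission, had 10.85 and 10.50 at 9 and 10 h, against 11.86, 11.99 and 11.50, and KIF18A, which limits microtubule growth at kinetochores, had 9.15 and 8.95 against 10.25, 10.23 and 9.72. They fell by 0.43 and by 0.42 per hour (limma, adjusted p of 0.0278 and 0.0113). For both the highest late value lay more than 0.5 under the lowest earlier one. CENPE, a kinetochore kinesin, stood at 8.57 and 8.22 against 9.11, 9.60 and 8.89 (line, adjusted p = 0.0545). In cytokinesis, CEP55, the midbody protein that recruits the abscission machinery, fell by 0.19 per hour (limma, adjusted p = 0.0278). ECT2, the RhoA exchange factor, differed by -0.49 (SE 0.20) and ARHGAP11A, a RhoA GTPase activator, by -0.55 (SE 0.21), and neither was called. A further probe set of ECT2 differed by -0.09.

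Of 27 kinetochore and centromere genes 10 were lower (37.0%, against 5.99% of all genes) and 0 higher (median -0.23), and 8 fell by the line. HJURP, the chaperone that brings CENP-A to centromeres in G1, had 10.02 and 9.80 at 9 and 10 h, against 11.84, 11.43 and 10.79 on the 6, 7 and 8 h arrays. It was lower at each hour than at the hour before and fell by 0.59 per hour (limma, adjusted p = 0.00282). SKA1, of the complex that couples kinetochores to microtubules, had 7.77 and 7.71 against 8.72, 8.80 and 7.94 and fell by 0.34 per hour (limma, adjusted p = 0.0247). CENPI and CENPL, proteins of the inner kinetochore, each fell by 0.41 per hour (limma, adjusted p of 0.0241 and 0.0373). Of 10 genes for condensins, topoisomerase II and Ki-67, TOP2A, NCAPG and NCAPH were lower (30.0%) and the median was 0.01. TOP2A had 11.47 and 11.99 at 9 and 10 h, against 13.23, 13.19 and 12.10, so that 8 h already lay near the late values. NCAPG, of condensin I, differed by -0.34 and NCAPH by -0.20.

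Of 19 genes for the subunits, activators, inhibitors and substrates of the anaphase-promoting complex 4 were lower (21.1%, against 5.99% of all genes) and 2 higher (10.5%, against 6.8%), and the median was 0.02. UBE2C, the ubiquitin-conjugating enzyme of the complex, had 13.21 and 13.31 at 9 and 10 h, against 14.50, 14.25 and 13.87, and fell by 0.35 per hour (limma, adjusted p = 0.00685). FZR1, which encodes the G1 activator CDH1, had 8.62 and 8.82 at 9 and 10 h, against 9.76, 9.65 and 9.03, and fell by 0.34 per hour (limma, adjusted p = 0.0175). ESPL1, which encodes separase, stood at 10.34 and 10.40 against 11.06, 11.39 and 10.83 (line, adjusted p = 0.0593). GMNN, the licensing inhibitor geminin, stood at 11.24 and 11.66 against 11.16, 11.08 and 11.04, higher by 0.35 (SE 0.18).

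**Figure D2:**
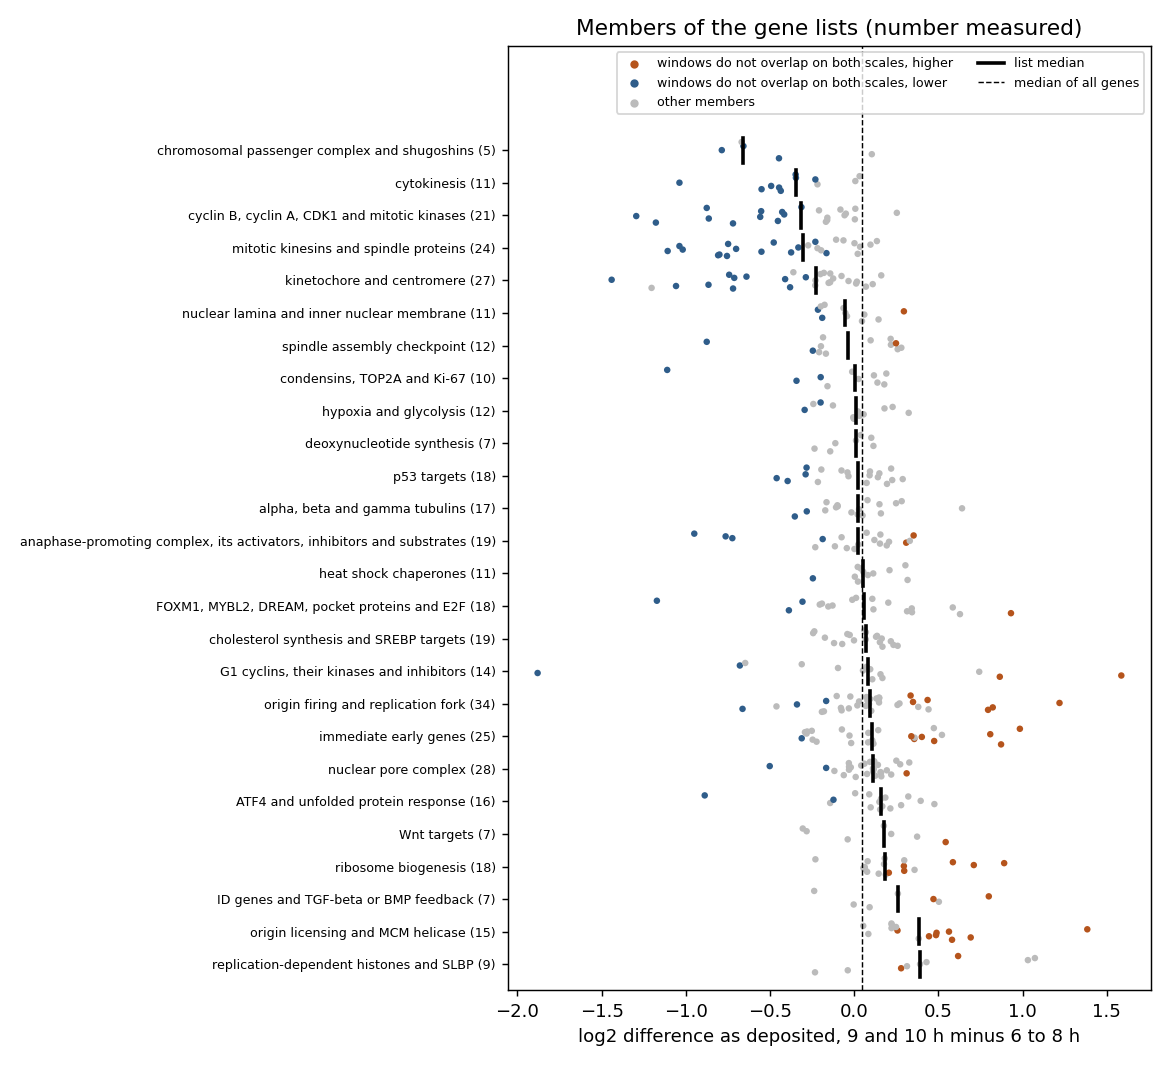
Log2 difference as deposited, the mean of 9 and 10 h minus the mean of 6, 7 and 8 h, of each measured member of 26 gene lists. Points are genes, coloured where the windows do not overlap on both scales, black bars are list medians and the dashed line is the median of all genes (0.04). Lists of mitosis lie at the top with medians down to -0.66 and the licensing and histone lists at the bottom with 0.38 and 0.39.

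Genes of origin licensing were higher in part. Of 15 genes for licensing factors and the MCM helicase 8 were higher without overlap (53.3%, background 6.8%) and 0 were lower. The median difference was 0.38, and 2 rose by the line. CDT1, MCM4, ORC2, ORC3, ORC4, ORC5 and ORC6 did not separate on both scales, with differences from 0.05 (ORC4) to 0.38 (CDT1). ORC1, the cell cycle regulated subunit of the origin recognition complex, had 8.00 and 8.86 at 9 and 10 h, against 6.78, 7.25 and 7.10 on the 6, 7 and 8 h arrays. It rose by 0.44 per hour (limma, adjusted p = 0.0344). CDC6, which loads the helicase, had 11.21 and 11.80 at 9 and 10 h, against 10.95, 10.90 and 10.93, and MCM6 11.54 and 12.18 against 11.43, 11.18 and 11.29. For both the 10 h array was the highest by more than 0.5 as deposited. After quantile normalization CDC6 had 11.20 and 11.54 at 9 and 10 h and MCM6 11.56 and 11.94. Neither was called by the line on that scale (limma, adjusted p of 0.0686 and 0.121). MCM10, which acts at the start of replication, had 10.73 and 10.89 at 9 and 10 h, against 9.84, 10.04 and 10.47 (adjusted p = 0.0647).

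Of 34 genes for origin firing and the replication fork 6 were higher (17.6%, against 6.8% of all genes) and 3 lower (8.82%, against 5.99%), with a median of 0.09. CHAF1A, the large subunit of the histone chaperone CAF-1, had 10.52 and 11.22 at 9 and 10 h, against 10.01, 10.14 and 10.07, and rose by 0.25 per hour (limma, adjusted p = 0.0491). POLD3, a subunit of DNA polymerase delta, had 7.44 and 8.92 at 9 and 10 h, against 6.99, 7.34 and 6.55. Its late values lay 1.5 apart and its other probe set differed by -0.07. DBF4, the activator of the CDC7 kinase, went the other way, with 10.98 and 10.81 at 9 and 10 h against 11.61, 11.65 and 11.41, and fell by 0.27 per hour (limma, adjusted p = 0.0394). Of 7 genes of deoxynucleotide synthesis 0 were higher and 0 lower, with a median of 0.01. DTYMK, the thymidylate kinase, differed by -0.24 (SE 0.17), with its other probe set at 0.20, and DCK, the deoxycytidine kinase, by -0.14 (SE 0.25).

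Both cyclin E genes were higher. CCNE2 had 10.31 and 10.83 at 9 and 10 h, against 8.87, 8.78 and 9.31 on the 6, 7 and 8 h arrays, and its difference of 1.59 (SE 0.44) was the largest of the higher genes named by the rule. Its other probe set differed by 3.27. CCNE2 rose by 0.52 per hour (limma, adjusted p = 0.0333), and at 0, 2 and 4 h it had stood at 12.18, 11.50 and 10.41. CCNE1 had 10.65 and 11.08 at 9 and 10 h, against 9.55, 10.08 and 10.37, and rose by 0.33 per hour (limma, adjusted p = 0.0113). Of 14 genes for G1 cyclins, their kinases and inhibitors these were the 2 higher ones and 2 were lower. Each is 14.3% of the list, against 6.8% higher and 5.99% lower over all genes. CCNG2, an unconventional cyclin linked to arrest, had 5.06 and 5.24 at 9 and 10 h, against 9.15, 6.55 and 5.40, and CDKN1B, the inhibitor p27, had 9.93 and 9.92 against 11.41, 10.26 and 10.14. In both the 6 h array stood far above the others, and neither passed the line (adjusted p of 0.0649 and 0.0610). Of 18 measured genes for FOXM1, MYBL2, E2F factors, pocket proteins and their complexes 1 was higher (5.56%, against 6.8% of all genes). In this list 3 were lower (16.7%, against 5.99%), and the median was 0.06. E2F1, E2F3, E2F7, E2F8, FOXM1 and MYBL2 were among those that did not separate on both scales. E2F2, an activating E2F factor, had 8.72 and 9.27 at 9 and 10 h, against 8.11, 8.01 and 8.07, while RBL1, the pocket protein p107, had 5.24 and 5.30 against 6.99, 6.77 and 5.57. RBL1 fell by 0.50 per hour (limma, adjusted p = 0.0270) and E2F2 was not called by the line (adjusted p = 0.131). RB1 itself differed by -0.31 (SE 0.16), with its other probe set at 0.054, and E2F5 by -0.39 (SE 0.37).

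SLBP, which binds the stem-loop of replication-dependent histone mRNAs, had 13.14 and 13.46 at 9 and 10 h, against 12.28, 12.76 and 13.01, and rose by 0.27 per hour (limma, adjusted p = 0.0278). With SLBP, 9 genes of this list were measured, of which 2 were higher (22.2%, against 6.8% of all genes) and 0 lower, with a median of 0.39. H2AC25, the other higher one, differed by 0.28 (SE 0.32). NPAT, the coactivator of histone genes, had 7.54 and 8.78 at 9 and 10 h, against 6.49, 7.56 and 7.21. Its windows touched, and it rose by 0.40 per hour (limma, adjusted p = 0.0441). Histone genes share near-identical sequence, so probe sets may read several of them.

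Genes with a prompt response to growth signals were partly higher. Of 25 immediate early genes 7 were higher (28.0%, against 6.8% of all genes) and 1 was lower (4.0%, against 5.99%), with a median of 0.11. ATF3, a stress-induced factor of the ATF family, had 9.99 and 10.57 at 9 and 10 h, against 8.89, 9.58 and 9.75, and rose by 0.34 per hour (limma, adjusted p = 0.0113). DUSP5, a phosphatase of ERK, rose by 0.16 per hour (limma, adjusted p = 0.0491). SPRY4, an inhibitor of receptor tyrosine kinase signalling, had 9.97 and 9.93 at 9 and 10 h, against 8.92, 8.97 and 9.01, a step between 8 and 9 h (line, adjusted p = 0.132). JUNB, an AP-1 factor, had 10.29 and 10.57 at 9 and 10 h, against 9.71, 9.33 and 9.83 (adjusted p = 0.168). Of 7 measured ID genes and feedback genes of TGF-beta and BMP, ID2 and ID3 were higher (28.6%, against 6.8% of all genes) and 0 were lower. ID2, an inhibitor of basic helix-loop-helix factors, had 13.52 and 14.01 at 9 and 10 h, against 13.18, 13.24 and 13.46, and rose by 0.20 per hour (limma, adjusted p = 0.00794), with 14.05 at 2 h. ID3 had 10.56 and 11.02 against 9.94, 10.01 and 10.02. AXIN2, a target and inhibitor of Wnt signalling, was the higher one of 7 Wnt targets (14.3%, against 6.8% of all genes), by 0.54 (SE 0.25).

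Of 18 genes of ribosome biogenesis 6 were higher (33.3%, against 6.8% of all genes) and 0 lower (median 0.18). RRP12, an export factor of ribosomal subunits, had 9.48 and 9.82 at 9 and 10 h, against 8.08, 9.38 and 8.82, and POLR1A, the large subunit of RNA polymerase I, 8.15 and 8.47 against 7.20, 8.12 and 7.48. In both the 7 h array came near the late ones. RRP9 differed by 0.59 (SE 0.21), and NOLC1, a nucleolar phosphoprotein, rose by 0.13 per hour (limma, adjusted p = 0.0430).

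The genes of the nuclear envelope did not move together. Of 11 genes of the lamina and inner membrane LMNB2, which encodes lamin B2, was higher by 0.30 (SE 0.13). SUN1 and LBR, the lamin B receptor, were lower, with differences of -0.22 (SE 0.14) and -0.19 (SE 0.12). That is 9.09% higher and 18.2% lower, against 6.8% and 5.99% of all genes. Of 28 nucleoporins NUP188 was higher by 0.31 and NUP54 and NUP62CL were lower, with differences of -0.17 and -0.50. These are 3.57% higher and 7.14% lower, near the 6.8% and 5.99% of all genes. Of 18 p53 targets 4 were lower (22.2%, against 5.99% of all genes) and 0 higher, with a median of 0.02. MDM2, the ubiquitin ligase of p53, had 11.65 and 11.64 at 9 and 10 h, against 11.83 to 12.49 at the earlier hours, and fell by 0.23 per hour (limma, adjusted p = 0.0158), but its 4 probe sets differed by -0.46 to 0.20. FAS, RRM2B and ZMAT3 had differences of -0.40, -0.29 and -0.28. The 4 probe sets of ZMAT3 ran from -0.80 to 0.15 and the 4 of FAS from -0.44 to -0.25, with 1 lower without overlap for either gene. Of 17 tubulin genes TUBB and TUBA1A were lower (11.8%, against 5.99% of all genes), with differences of -0.28 (SE 0.11) and -0.35 (SE 0.16). TUBB fell by 0.11 per hour (limma, adjusted p = 0.0308). Tubulin genes are also close in sequence.

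Few genes of the other lists had windows without overlap. Of 19 genes of cholesterol synthesis 0 were higher and 0 lower, and DHCR7 and SREBF1 had the largest differences, 0.26 and -0.24, with the other probe set of SREBF1 at 0.27. Of 11 heat shock chaperones DNAJB1 was lower (-0.25, or 9.09% of the list against 5.99% of all genes). Of 12 genes of hypoxia and glycolysis NDRG1 and VEGFA were lower (-0.29 and -0.20, or 16.7% of the list), with 0 higher in either list. Of 16 genes of ATF4 and the unfolded protein response 2 were lower (12.5%), SLC7A11 and PSAT1, and 0 higher. SLC7A11, the cystine transporter, had 7.74 and 7.88 at 9 and 10 h, against 9.21, 8.65 and 8.23, and fell by 0.40 per hour (limma, adjusted p = 0.0278). PSAT1 differed by -0.12 (SE 0.11), and its other probe set was higher by 0.33.

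The genes of the cell cycle signature (CCS), chosen by the study on HeLa cells and fibroblasts and not on these arrays, were grouped by the phase at which they peak. Some, such as FZR1 and CKAP2, are in both G2 and M phase, and some are also in the lists above. Of 44 genes of G2, 25 were lower without overlap (56.8%, against 5.99% of all genes) and 0 higher, with a median of -0.41, and 22 fell by the line. PSRC1, a spindle protein, had 9.78 and 9.63 at 9 and 10 h, against 11.05, 11.12 and 10.50, and fell by 0.46 per hour (limma, adjusted p = 0.0141). Of 61 genes of M phase 22 were lower (36.1%) and 1, PPIF, was higher (median -0.14), and 6 fell. TROAP and CKAP2, both of the spindle, differed by -1.01 (SE 0.24) and -0.80 (SE 0.13) and were not called by the line (adjusted p of 0.121 and 0.0686). The other probe set of TROAP differed by -0.028. Of 7 genes of S/G2, 3 were lower (42.9%), STIL, AURKB and ERCC6L. STIL, a protein of centriole duplication, fell by 0.28 per hour (limma, adjusted p = 0.0113), and ERCC6L differed by -0.26. Of 18 genes of M/G1 2 were lower (11.1%), CENPI and HERC4, and 0 were higher (median 0.11). The probe sets of HERC4 differed by -0.20 and 0.25. Of 29 genes of G1, CASP8AP2, RER1, SLBP and YES1 were higher (13.8%, against 6.8% of all genes) and 0 were lower (median 0.14). Of 19 genes of G1/S 6 were higher (31.6%) and 0 lower (median 0.17), with DTL and GINS2 among the 3 that rose. Of 64 genes of S phase 8 were higher (12.5%, against 6.8% of all genes) and 3 lower (4.69%, against 5.99%), with a median of 0.10. EXO1, a 5′ to 3′ exonuclease of repair, stood at 10.38 and 11.22 at 9 and 10 h, against 10.05, 10.10 and 10.07.

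Hour by hour, each gene was set against its mean over the 5 arrays after quantile normalization. The median of these values over all genes was then subtracted on each array. The median of the G2 genes was 0.31, 0.19, 0.05, -0.16 and -0.33 at 6, 7, 8, 9 and 10 h. That of the M phase genes was -0.0040, 0.19, 0.10, -0.020 and -0.14, highest at 7 h. The median of the G1 genes was -0.15 at 6 h and 0.10 at 10 h, and that of the G1/S genes -0.10 at 6 h, -0.13 at 7 h, -0.10 at 8 h, 0.07 at 9 h and 0.11 at 10 h. Of the 44 G2 genes 26 were highest at 6 h and 1 at 10 h, beside 41.0% and 21.6% of all genes. Of the 61 M phase genes 27 were highest at 7 h, beside 13.9% of all genes.

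**Figure D3:**
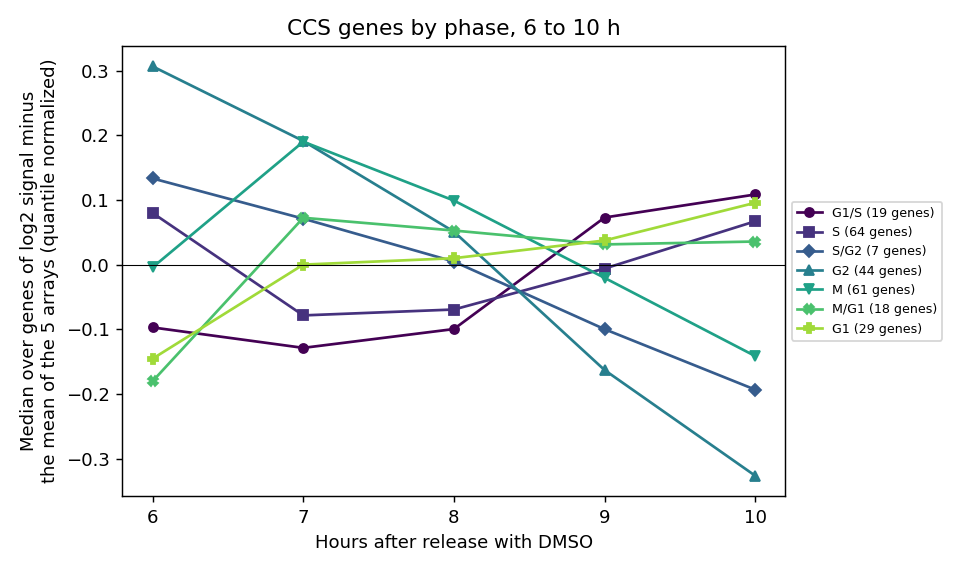
Median over the CCS genes of each phase of the log2 signal minus the gene's mean of the 5 arrays, after quantile normalization, against hours after release with DMSO. The median of these values over all genes was also subtracted on each array. Each line is 1 phase. The G2 genes lie at 0.31 at 6 h and -0.33 at 10 h, the M phase genes peak at 7 h with 0.19 and the G1/S genes are highest at 10 h with 0.11.

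The 12 largest differences in each direction were taken among genes without overlap and with a mean of at least 7 in the higher window, none of which passed limma's test of the windows. ZNF165, a zinc finger protein, had 5.57 and 5.30 at 9 and 10 h, against 9.18, 8.49 and 7.03 on the 6, 7 and 8 h arrays, the largest of the lower ones with -2.79 (SE 0.84), and it fell by 1.07 per hour (limma, adjusted p = 0.00282). At 0 h it had stood at 5.50, close to its late values. CKAP2L, a spindle protein, had 7.83 and 7.55 at 9 and 10 h, against 10.06, 9.70 and 8.82, and fell by 0.73 per hour (limma, adjusted p = 0.00282). NEIL3, a DNA glycosylase, had 8.52 and 8.33 at 9 and 10 h, against 10.17, 9.85 and 9.05, and fell by 0.54 per hour (limma, adjusted p = 0.00282). GAS2L3, a linker of actin and microtubules in cytokinesis, had 10.53 and 9.72 against 11.65, 11.65 and 11.30, and PIF1, a DNA helicase, 5.81 and 5.36 against 7.54, 7.42 and 6.39. NUDT6, CCDC68 and NEURL1B fell by 0.71, 0.56 and 0.56 per hour (limma, adjusted p of 0.00797, 0.00797 and 0.0212). CCNG2, ERICH5, HJURP and CDK1 complete the 12.

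Of the 12 higher ones, CCNE2, ORC1, DTL, PIGL, PUS3 and TNFRSF10D rose by the line. DTL, the substrate receptor of the CRL4-CDT2 ubiquitin ligase, had 11.20 and 12.04 at 9 and 10 h, against 10.05, 10.16 and 10.54 on the 6, 7 and 8 h arrays, and rose by 0.49 per hour (limma, adjusted p = 0.0113). PIGL, an enzyme of GPI anchor synthesis, had 8.44 and 9.02 at 9 and 10 h, against 6.92, 7.63 and 7.75, and PUS3, a pseudouridine synthase, 8.70 and 9.28 against 7.28, 8.10 and 8.03. ITPRIP, which binds inositol trisphosphate receptors, had 7.32 and 7.58 at 9 and 10 h, against 6.30, 6.30 and 6.36, with 6.33 to 6.39 at 0, 2 and 4 h. WDR76 stood at 8.39 and 9.41 against 7.93, 7.85 and 7.56, and NANP, a phosphatase of sialic acid synthesis, at 8.18 and 8.93 against 7.23, 7.28 and 7.20. TNFRSF10D, CASP8AP2 and KLHL15 had low 6 h arrays, with 6.64, 7.04 and 6.36 there and 8.06 or more on the 7 and 8 h arrays. Their differences were 1.13, 1.08 and 1.07, and 0.59, 0.65 and 0.47 over the 7 and 8 h arrays alone.

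Nocodazole arrays of 7 to 10 h show how the same hours looked in cells that cannot build a spindle. The change from 7 and 8 h to 9 and 10 h was compared between the treatments, with limma on the difference DMSO minus nocodazole. The DMSO arrays here are the same as above, so their side of it is no independent evidence. As deposited, 1501 genes changed further upward with DMSO than with nocodazole (16.4%) and 216 further downward (2.37%), or 87.4% upward. Leaving out the DMSO 8 h, DMSO 10 h or nocodazole 8 h array left 15 and 3, 12 and 3, and 13 and 2, and leaving out the DMSO 9 h array gave 3084 and 229. Without the nocodazole 7, 9 and 10 h arrays the counts were 389 and 139, 853 and 141, and 161 and 77. After quantile normalization 211 (2.31%) and 325 (3.56%) did, or 39.4% upward. Over all genes the median change was 0.05 with DMSO and -0.40 with nocodazole as deposited, and 0.00050 and -0.0023 after quantile normalization. The nocodazole arrays had medians of 8.88 and 8.76 at 9 and 10 h, against 9.32 and 9.41 on the 7 and 8 h arrays, and the part of this in the counts as deposited was not tested. After quantile normalization the count was 9 and 5 without the nocodazole 8 h array and 10 and 5 without the DMSO 10 h array. It was 48 and 104 without the DMSO 8 h array, 116 and 229 without the DMSO 9 h array, and 118 and 212 without the nocodazole 7 h array. Without the nocodazole 10 h array it was 119 and 137, and without the nocodazole 9 h array 199 and 212.

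CCNE2 differed between the treatments. With DMSO it had 10.31 and 10.83 at 9 and 10 h, against 8.78 and 9.31 on the 7 and 8 h arrays, and with nocodazole 3.26 and 3.83 at 9 and 10 h, against 5.96 and 6.55 on the 7 and 8 h arrays. The difference of the changes was 4.29 (SE 0.67, limma, adjusted p = 0.0107) after quantile normalization. The late nocodazole signals lie under the level of 5 used to keep genes, near those of the absent cell type markers, so the size depends on values close to background. With every signal under 5 set to 5 it was 2.59. CDC6 with DMSO had 11.21 and 11.80 at 9 and 10 h, against 10.90 and 10.93 on the 7 and 8 h arrays, and with nocodazole 10.26 and 10.13 against 10.84 and 10.72. Its difference after quantile normalization was 0.70 (SE 0.16, limma, adjusted p = 0.0365). EXO1 and ITPRIP were also called upward with DMSO on both scales (1.01 and 1.78 after quantile normalization, limma, adjusted p of 0.0465 and 0.0338). GINS2 was called as deposited (1.20, limma, adjusted p = 0.0249), not after quantile normalization (0.74, adjusted p = 0.0934).

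Neither CDK1 nor CCNB1 was called in this comparison. CDK1 was lower late with nocodazole as well, with 12.54 and 11.23 at 9 and 10 h, against 13.52 and 12.82 on the 7 and 8 h arrays. The difference of its changes was 0.20 as deposited (SE 0.50, limma, adjusted p = 0.776). After quantile normalization it was -0.04 (SE 0.45, limma, adjusted p = 0.971). This does not show that the changes were alike. CCNB1 with nocodazole stayed at 13.87 and 13.83 at 9 and 10 h, against 13.77 and 13.78 on the 7 and 8 h arrays. The difference of its changes was -0.33 as deposited (limma, adjusted p = 0.49) and -0.38 after quantile normalization (limma, adjusted p = 0.533). Of the functional lists of mitosis, CCNA2, KIF18B and CENPI were called downward with DMSO after quantile normalization (-0.61, -0.97 and -1.90), and MAD2L1BP and ZW10 of the spindle checkpoint list upward (1.08 and 1.01). The downward genes were 1 of 21 for kinases and cyclins, 1 of 24 for kinesins and 1 of 27 for kinetochores, beside 3.56% of all genes. The upward ones were 2 of 12, beside 2.31% of all genes. With every signal under 5 set to 5, MAD2L1BP stayed at 1.08 and ZW10 was at 0. CENPI with DMSO had 6.11 and 6.01 at 9 and 10 h, against 7.45 and 6.64 on the 7 and 8 h arrays, and with nocodazole 6.87 and 6.79 against 6.80 and 6.08. CCNA2, KIF18B, MAD2L1BP and ZW10 were named after their values were seen. The 44 CCS genes of G2 had median changes of -0.39 with DMSO and -0.17 with nocodazole after quantile normalization.

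The 6 genes with the smallest p in this comparison as deposited were PPM1H, FAM219B, SOWAHC, C8orf82, GSN and DCAF17. PPM1H, a protein phosphatase, with DMSO had 7.48 and 6.90 at 9 and 10 h, against 7.80 and 8.06 on the 7 and 8 h arrays, and with nocodazole 9.74 and 9.80 against 7.45 and 7.42 (-3.07, SE 0.28, limma, adjusted p = 0.00491). GSN, the actin-severing protein gelsolin, with DMSO had 8.36 and 8.48 against 8.70 and 8.15, and with nocodazole 5.53 and 5.88 against 8.37 and 8.46 (2.70, SE 0.31, limma, adjusted p = 0.00917). These 2 differences are as deposited, and after quantile normalization they were -3.63 for PPM1H and 2.21 for GSN. In both genes the DMSO arrays lay close to the early nocodazole arrays, and the late nocodazole arrays stood apart.

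**Figure D4:**
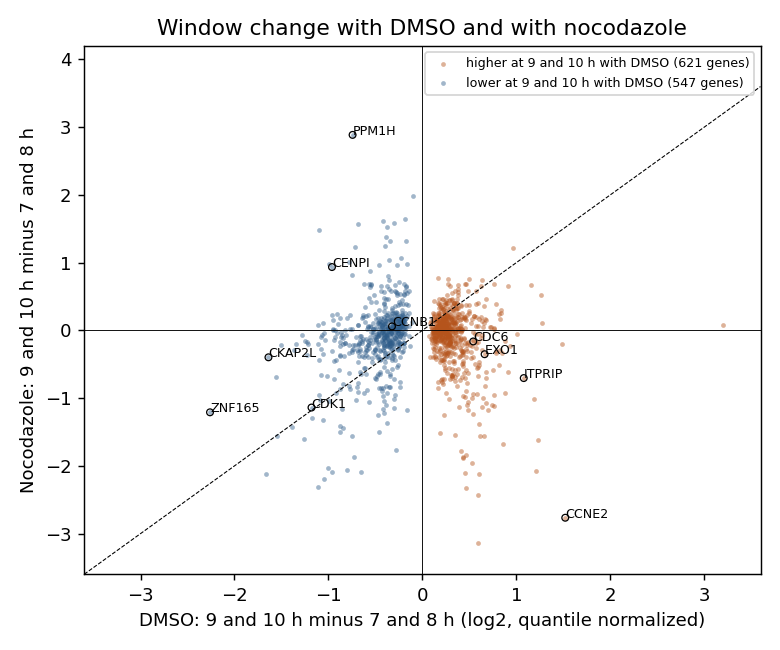
Change from 7 and 8 h to 9 and 10 h after quantile normalization (log2) with DMSO on the horizontal and with nocodazole on the vertical axis, for the 621 genes that were higher and the 547 that were lower at 9 and 10 h with DMSO without overlap. The dashed line marks equal change, the horizontal split follows from how the genes were chosen, and circled genes are named, CCNB1 being in neither set. CCNE2 lies low on the right and CDK1 near the dashed line.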

How the data were processed

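RNA of 12 samples was hybridised to Affymetrix U133 Plus 2.0 arrays. The deposited values are log2 signals that the authors computed with GC-RMA, whose version is not given in the sources used here, nor whether arrays were quantile normalized. Of 54675 probe sets 41097 carried 1 gene symbol, 1801 several and 11777 none. Probe sets with 1 symbol entered if 2 or more arrays reached a log2 signal of 5 (15030), and the one of highest mean stood for each of 9130 genes. Symbols were matched to RefSeq, with 4 unmatched.

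The windows were compared with limma 3.58.1 (trend, R 4.3.3) over the 8 DMSO arrays in 3 windows, with Benjamini-Hochberg adjustment at 0.05. The hours are not labelled as replicates, so p-values measure only the spread between these arrays. Quantile normalization, a straight line over 5 hours, other filters and leaving out each array were alternatives. The scripts were tested on simulated data. The members, markers and gene lists were chosen with earlier results of these data known. Named genes are CDK1, GINS2 and CCNB1, the 12 largest differences in each direction among genes without overlap and a mean of at least 7 in the higher window, up to 4 per list, and the 6 smallest p against nocodazole. Other genes named were chosen after their values were seen. The small number of arrays limits the precision.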

Additional observations from a re-analysis of the deposited data

Results flagged for a closer look

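The change from 7 and 8 h to 9 and 10 h differed between DMSO and nocodazole, by a test of the difference itself (limma), for 1501 genes upward and 216 downward with DMSO as deposited, and for 211 and 325 after quantile normalization. Leaving out the DMSO 10 h array left 12 and 3 as deposited. The 6 genes with the smallest p in this test as deposited had, on that scale, a DMSO change minus nocodazole change of -3.07 for PPM1H, 2.40 for FAM219B, 3.94 for SOWAHC, 2.18 for C8orf82, 2.70 for GSN and 1.87 for DCAF17. FAM219B had 8.34 and 8.44 with DMSO at 9 and 10 h, against 8.07 and 7.94 on the 7 and 8 h arrays, and 5.83 and 5.82 with nocodazole, against 7.73 and 7.95. SOWAHC with nocodazole had 4.53 and 4.51 at 9 and 10 h, against 8.34 and 8.24 on the 7 and 8 h arrays. These late signals, and those of DCAF17 with nocodazole (3.91 and 3.81) and at 7 and 8 h with DMSO (4.72 and 4.53), lie under the level of 5 used to keep genes. With every signal under 5 set to 5 the difference was 3.46 for SOWAHC and 0.35 for DCAF17.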

How the results depend on the processing

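The labels pair no arrays between the DMSO windows, but DMSO and nocodazole share the hours 7 to 10. With the hour as a replicate block, added after the data were seen, 940 and 182 genes differed between the treatments as deposited, and 347 and 372 after quantile normalization. That fit used only the arrays of 7 to 10 h, so the block is not its only difference from the main one. EXO1 was not called there after quantile normalization (limma, adjusted p = 0.0559). The difference of 7 minus 8 h with DMSO had r across genes of -0.17 with that of nocodazole as deposited, and 9 minus 10 h -0.0030. After quantile normalization these were -0.11 and 0.0058. Changes that differ between the treatments also enter this r, so it cannot decide whether the hour is a pairing. The main comparison does not take the hour as one. The window test called 0 genes in either direction. With all 12 arrays it called 1 higher gene, FAM222A (3.53, limma, adjusted p = 0.0263), and with 1 array left out 0 to 1 higher. The straight line called 5 lower genes as deposited, and 66 higher and 182 lower after quantile normalization, or 1 to 85 higher and 12 to 213 lower with 1 array left out. Without overlap as deposited, 1040 to 4331 genes were higher and 904 to 2795 lower with 1 array left out, 1066 were lower with 7 and 8 h as the earlier window and 1495 were lower after quantile normalization. On both scales leaving out 1 array gave 876 to 2300 higher and 842 to 1930 lower. Against nocodazole the counts were 211 and 325 after quantile normalization. With 1 array left out they were 12 to 3084 and 2 to 236 as deposited, and 9 to 199 and 5 to 375 after quantile normalization. Where a left-out array leaves 1 array in a window, that array is assumed to vary like the others.

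Of 1677 values for 112 named genes 10 turned direction. DCK was at 0.091 with 7 and 8 h as the earlier window and without the 6 h array, with -0.33 to 0.091 over all left-out arrays. With the mean of all probe sets SREBF1 was at 0.013, PSAT1 at 0.10 and HERC4 at 0.028. SOWAHC was at -0.085 after quantile normalization, -0.062 per hour by the line and -0.105 by the line after quantile normalization, and at -0.22 and -0.13 without the 8 and 10 h arrays (-0.22 to 0.18 over all left-out arrays). Without the 10 h array the medians of the nuclear pore genes, the Wnt targets and the CCS genes of M/G1 were -0.031, -0.076 and -0.043, against up to 0.20, 0.34 and 0.24 with another array left out. The cause was not tested.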
